A study of Mus musculus with 12 samples.

Results

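The EGF family ligands and the ErbB receptors that they activate were examined in immortalized mouse embryonic palatal mesenchyme (iMEPM) cells, the mesenchymal cells of the developing palate. The genes were chosen by symbol from the 51490 genes of the count table and numbered 10, namely the ligands *Areg*, *Ereg*, *Hbegf*, *Nrg1*, *Tgfa* and *Btc*, the receptors *Egfr*, *Erbb2* and *Erbb3*, and *Errfi1*, which encodes a cytoplasmic inhibitor of these receptors. All 10 were in the table and all 10 passed the filter on low counts, which left 15037 genes for testing. RNA-seq was performed on 12 samples, with 3 biological replicates in each of 4 groups. Cells stably carried either a scramble shRNA or an shRNA against *Srsf3*, an RNA-binding protein of the SR family of splicing factors, and were left unstimulated or received 10 ng/mL PDGF-AA, the ligand of PDGFRα, for 1 hr. The groups are named scramble -PDGF-AA, scramble +PDGF-AA, shSrsf3 -PDGF-AA and shSrsf3 +PDGF-AA.

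All 4 groups share a *Cdkn2a*-/- background, since the parental line was derived from a male embryo without this tumor suppressor locus. Each shRNA was delivered by lentivirus and is represented by 1 stable line, selected with puromycin and sorted for high GFP, so that the shRNA and the history of a line cannot be told apart. *Srsf3* levels are given in CPM, which divides each count by the effective size of its library. They ranged from 199 to 212 in scramble -PDGF-AA and from 161 to 164 in shSrsf3 -PDGF-AA samples. With ligand they ranged from 215 to 231 in scramble and from 161 to 169.5 in shSrsf3 samples. The decrease in shSrsf3 samples without and with ligand was 0.34 and 0.43 on the log2 scale (adjusted p = 7.95e-06 and 9.54e-07, edgeR). These are RNA levels, and the study reports a larger decrease of Srsf3 protein in the shSrsf3 line by western blot. The total count per library was between 30958966 and 76123359. The 9 mesenchyme markers summed to between 35256 and 37042 CPM in scramble and between 31515 and 33799.8 CPM in shSrsf3 libraries, with *Msx1* the lowest of them, at 1.26 to 1.81 CPM and 0.547 to 1.00 CPM. The sum is mainly that of *Col1a1*, *Col1a2* and *Vim* (means of 18235, 12477 and 4327 CPM in scramble -PDGF-AA). *Osr2* was at 3.07 to 5.91 CPM in scramble and 2.30 to 3.30 CPM in shSrsf3 libraries. The 9 epithelial markers summed to between 4.81 and 6.25 CPM in scramble and between 2.94 and 4.25 CPM in shSrsf3 libraries, with 7 of them under 1 CPM and *Esrp1* at 0 in every library. In scramble and shSrsf3 libraries, *Trp63* was at 2.23 to 3.49 and 2.08 to 3.15 CPM and *Cdh1* at 1.81 to 2.85 and 0.376 to 0.676 CPM. The 5 Schwann and melanocyte markers summed to between 3.72 and 4.91 CPM in scramble and 2.96 and 3.92 CPM in shSrsf3 libraries (*Sox10* at 0), the 3 leukocyte markers to between 0.814 and 1.68 CPM (*Cd3e* at 0), and the 3 endothelial markers to between 0.727 and 1.22 CPM in scramble and between 2.14 and 2.70 CPM in shSrsf3 libraries. The part of these differences in the results between the lines was not tested. The share of reads mapped by Salmon was under 90% in 3 libraries, namely replicate 1 and replicate 2 of scramble -PDGF-AA and replicate 2 of scramble +PDGF-AA. Values in the remaining 9 libraries are given for results whose call changed there and for some whose size changed. Among the 9, scramble -PDGF-AA is represented by replicate 3 alone, so every comparison with that group then rests on 1 library of it. In bulk RNA, fewer expressing cells and less RNA per cell cannot be told apart.

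EGF family ligands are made as membrane-anchored precursors and are released by cell surface proteases, mainly of the ADAM family. Amphiregulin (*Areg*), epiregulin (*Ereg*), HB-EGF (*Hbegf*), TGFα (*Tgfa*) and betacellulin (*Btc*) bind EGFR, with HB-EGF, epiregulin and betacellulin also binding ErbB4, whereas neuregulin-1 (*Nrg1*) binds ErbB3 and ErbB4. ErbB2 has no known ligand of its own and pairs with the other receptors, and ErbB3 has little kinase activity. Activated receptors signal through Ras and ERK and through PI3K and Akt, and several of the ligand genes, together with *Errfi1* (also known as Mig6), are known as early targets of growth factor signaling in fibroblasts and epithelia.

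*Ereg* and *Areg* lie next to each other on chromosome 5 in the GRCm39 build, at 91222157 to 91241505 and 91287451 to 91296291 on the plus strand, 45.9 kb apart and within a stretch of 376 kb that runs from *Epgn* to *Btc*. *Errfi1* lies on the plus strand of chromosome 4, at 150938376 to 150955402. The promoters of these 3 genes are shown because they are 3 of the 4 genes called upon ligand stimulation in at least 1 cell line. The 250 bases upstream of the start of the canonical transcript (GENCODE M39) are printed 5′ to 3′ on the plus strand, and capitals mark a match to the cAMP response element (CRE, TGACGTCA) or to the AP-1 motif (TGANTCA).
Areg: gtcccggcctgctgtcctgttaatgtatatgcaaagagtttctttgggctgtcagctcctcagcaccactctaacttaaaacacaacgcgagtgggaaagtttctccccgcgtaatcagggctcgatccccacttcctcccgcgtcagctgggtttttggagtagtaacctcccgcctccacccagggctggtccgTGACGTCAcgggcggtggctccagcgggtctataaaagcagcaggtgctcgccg
Ereg: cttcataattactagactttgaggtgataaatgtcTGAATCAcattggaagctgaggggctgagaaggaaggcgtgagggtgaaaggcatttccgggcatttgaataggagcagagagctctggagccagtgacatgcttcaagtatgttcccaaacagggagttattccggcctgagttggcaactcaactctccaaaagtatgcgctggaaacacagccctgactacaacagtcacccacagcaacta
Errfi1: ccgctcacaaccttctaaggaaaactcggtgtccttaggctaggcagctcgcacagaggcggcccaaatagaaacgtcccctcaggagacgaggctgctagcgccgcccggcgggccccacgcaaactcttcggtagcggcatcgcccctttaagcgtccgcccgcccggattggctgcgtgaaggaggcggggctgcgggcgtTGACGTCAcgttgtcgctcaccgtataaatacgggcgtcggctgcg
The windows are chr5:91287201-91287450 for *Areg*, chr5:91221907-91222156 for *Ereg* and chr4:150939272-150939521 for *Errfi1*, the last of which lies inside the annotated span of *Errfi1*. The antisense lncRNA gene *1700045H11Rik* overlaps the *Errfi1* gene, and its overlap with the window was not computed.

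The CRE matches lay 54 to 47 bases upstream of the *Areg* start and 46 to 39 bases upstream of the *Errfi1* start, and the AP-1 match of *Ereg* lay at -215 to -209. Both motifs were searched on both strands and do not overlap each other in these windows. Of the 9 genes whose windows were searched, all but *Hbegf*, the CRE was found in these 2, and AP-1 was found in *Ereg*, *Tgfa* (-117 to -111) and *Erbb3* (-78 to -72). Across 21757 promoters of protein-coding genes with windows of the same length, 1.7% held the CRE and 6.18% held AP-1. The shorter core TGACG, which is part of the full CRE, was also present in *Btc* and *Erbb2* and in 18% of promoters. A CArG box, the motif named for serum response factor, was found in 1.4% of promoters and in none of the 9 windows. A match describes the letters of the window and not a bound site.

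On the same build *Nrg1* lies on chromosome 8 (32303906 to 33374825, minus strand), *Tgfa* on chromosome 6 (86172041 to 86252728, plus strand), *Btc* on chromosome 5 (91505120 to 91550883, minus strand), *Egfr* and *Erbb2* on the plus strand of chromosome 11 (16702198 to 16868158 and 98303203 to 98328542) and *Erbb3* on chromosome 10 (128403392 to 128425811, minus strand). Genes on the opposite strand overlap all of the 10 but *Areg*, *Btc* and *Erbb3*. The libraries were stranded, but the strand setting of the quantification is not given in the sources used here. Levels were compared between genes as CPM per kb of transcript, the only scale on which levels of different genes are set side by side here. In scramble -PDGF-AA samples *Hbegf* was highest, with 36.9 ± 5.21 CPM per kb (SD, n = 3), followed by *Erbb2* (12.3), *Nrg1* (10.9), *Errfi1* (9.15), *Egfr* (7.85) and *Ereg* (7.68). The ranges over libraries of *Errfi1*, *Egfr* and *Ereg* overlapped, so that their order is not beyond the spread, and the highest *Errfi1* library met the lowest *Nrg1* library at 10.7. *Areg* (0.307), *Tgfa* (0.166), *Btc* (0.0804) and *Erbb3* (0.0412) formed a low set, and *Btc* and *Erbb3* overlapped. With the length of all exons in place of 1 transcript, *Errfi1* ranked 3rd, *Ereg* 4th and *Nrg1* 6th. In shSrsf3 +PDGF-AA samples *Ereg* reached 19.4 ± 1.39 CPM per kb and ranked second after *Hbegf* with 66.6 ± 2.14 (SD, n = 3 each). The raw counts behind the low set were 13 to 54 per library for *Areg*, 22 to 72 for *Tgfa*, 7 to 25 for *Btc* and 4 to 22 for *Erbb3*, against 1423 or more for *Ereg* and each of the others.

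**Figure D1:**
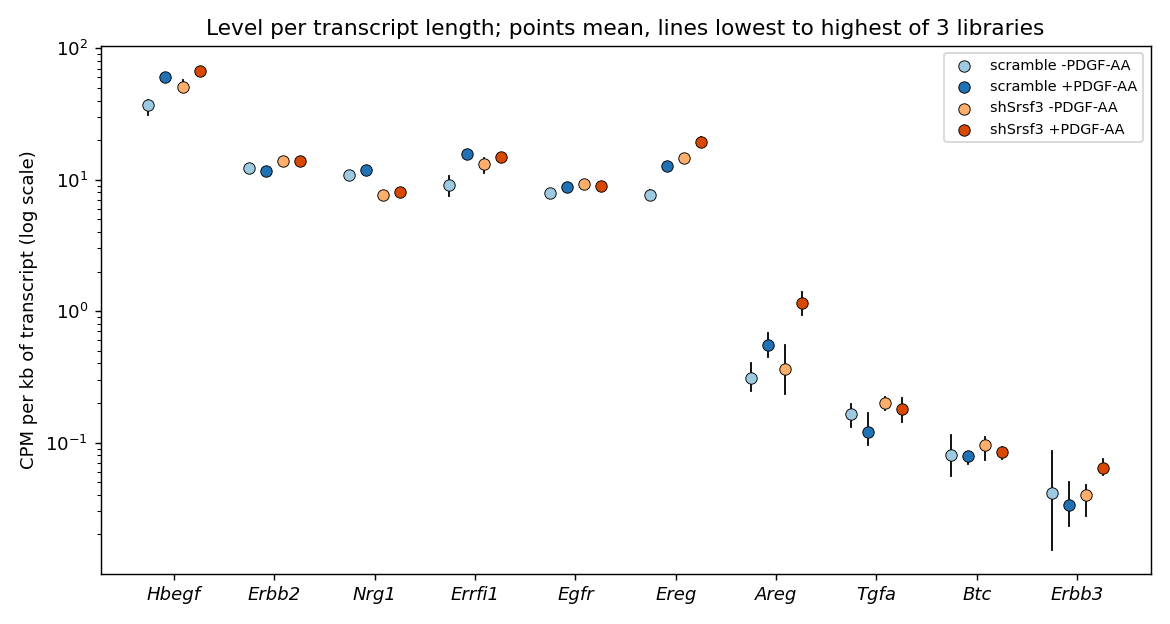
Level of each gene in CPM per kb of its canonical transcript on a log scale, with points for the mean and lines from the lowest to the highest of 3 libraries in each of the 4 groups. *Hbegf* stands highest in every group, and *Areg*, *Tgfa*, *Btc* and *Erbb3* lie below all other genes.

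The calls rest on edgeR's quasi-likelihood test with p-values adjusted by Benjamini-Hochberg over all 15037 genes, at a threshold of 0.05, and a stricter call also required a 2-fold change. In the comparison of PDGF-AA with no ligand in scramble cells, 3 of the 10 genes were called higher (*Ereg*, *Hbegf* and *Errfi1*) and none lower, where 2.00% of all tested genes were called higher and 2.04% lower. None of the 10 passed the 2-fold rule in edgeR or DESeq2, where 0.200% of all genes did in edgeR. An unadjusted p under 0.05 in edgeR was found for 6 of the 10, beside 2643 of all 15037 tested genes. In shSrsf3 cells PDGF-AA gave 2 higher calls (*Areg* and *Ereg*) and no lower call, 1 of them at 2-fold (*Areg*), beside 0.426% of all genes called higher, 0.140% called lower and 0.0399% called at 2-fold. Between shSrsf3 and scramble samples without ligand, 5 genes were called higher (*Ereg*, *Hbegf*, *Egfr*, *Erbb2* and *Errfi1*) and 1 lower (*Nrg1*), beside backgrounds of 22.2% higher and 23.7% lower, and none was called at 2-fold by edgeR or DESeq2, where 5.75% of all genes were. With ligand, 3 were called higher (*Areg*, *Ereg* and *Erbb2*) and 1 lower (*Nrg1*), beside 20.3% and 20.7% of all genes, and 1 passed the 2-fold rule (*Areg*), where 5.42% did. The median log2 fold change of the 10 genes was 0.14 and 0.13 upon ligand stimulation in scramble and shSrsf3 cells and 0.24 and 0.18 between shSrsf3 and scramble samples without and with ligand, against -0.01, 0, -0.02 and -0.01 over all tested genes. The 4 comparisons share groups in pairs (scramble -PDGF-AA, for example, is the reference both for the ligand in scramble cells and for shSrsf3 without ligand), so the values below are set side by side and not counted as independent.

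**Figure D2:**
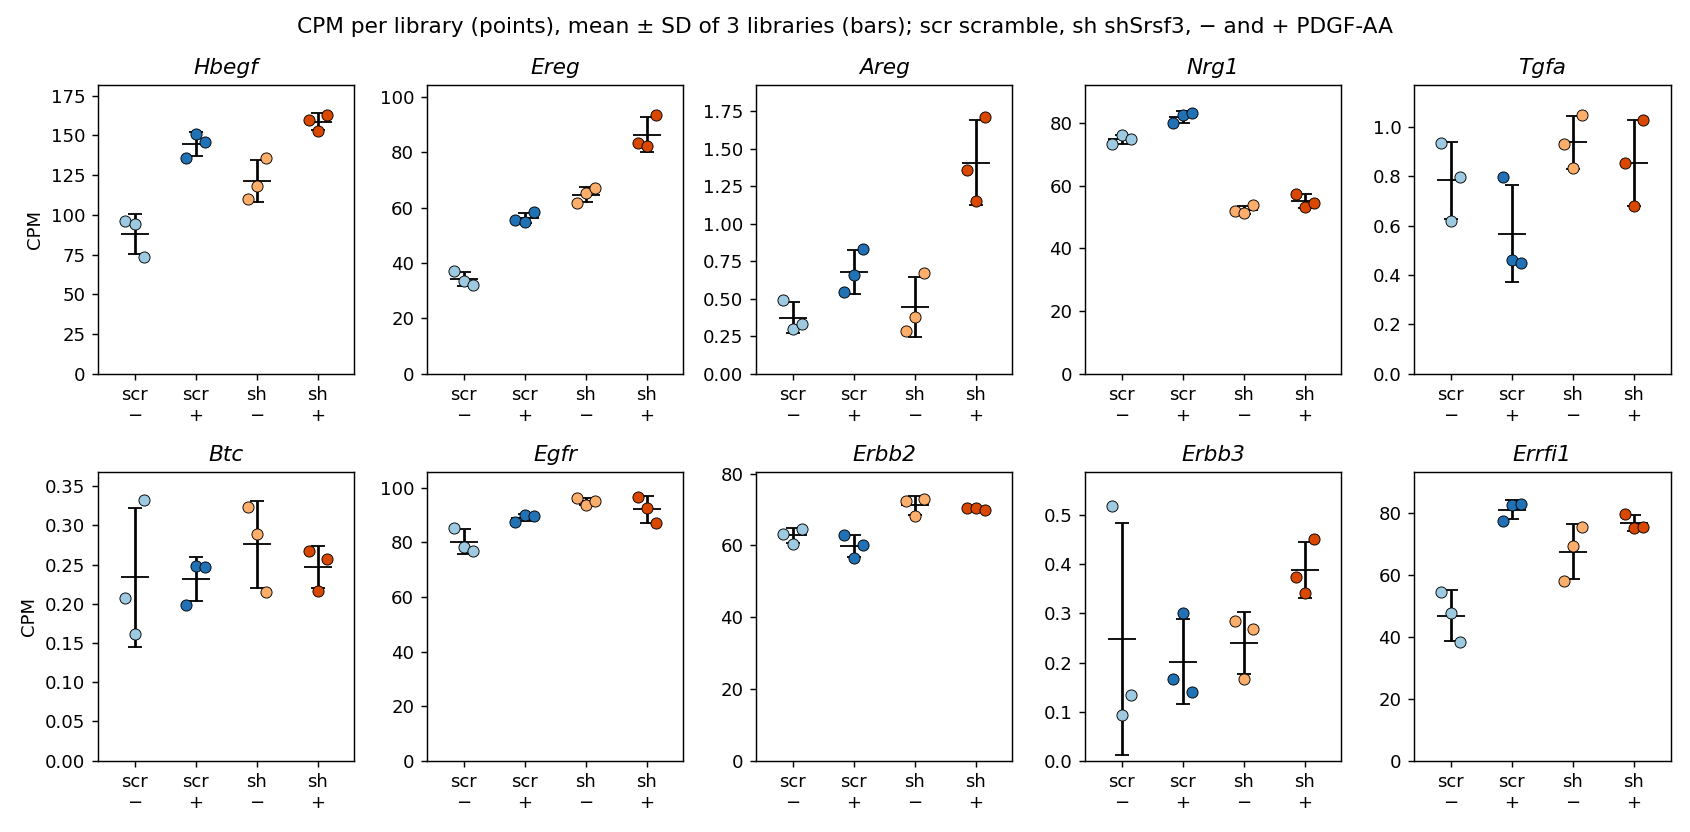
CPM of each gene in every library (points) with the mean and SD of 3 libraries (bars), for scramble (scr) and shSrsf3 (sh) cells without (−) and with (+) PDGF-AA, each panel starting at 0. *Ereg* separates all 4 groups, *Nrg1* separates the 2 cell lines, and *Errfi1* is lowest in scramble -PDGF-AA samples. The lines do not overlap for 53.3% of all tested genes without and 52.6% with ligand. The ligand conditions do not overlap for 18.8% in scramble and 18% in shSrsf3 cells.

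*Ereg*, which encodes epiregulin, was higher with ligand in both cell lines and higher in shSrsf3 than in scramble samples under both conditions. It was measured at 37.0, 33.4 and 32.2 CPM in scramble -PDGF-AA, at 55.6, 54.8 and 58.4 CPM in scramble +PDGF-AA, at 61.7, 65.3 and 67.2 CPM in shSrsf3 -PDGF-AA and at 83.4, 82.3 and 93.5 CPM in shSrsf3 +PDGF-AA. No 2 groups overlapped, and unstimulated shSrsf3 samples were above stimulated scramble samples. Groups of the 2 lines did not overlap for 53.3% of all tested genes without and 52.6% with ligand. Groups without and with ligand did not overlap for 18.8% of them in scramble and 18% in shSrsf3 cells. The same shares are the background for each statement on overlap below. The log2 fold change upon stimulation was 0.72 in scramble cells (95% interval 0.59 to 0.85, adjusted p = 2.04e-05, edgeR) and 0.42 in shSrsf3 cells (0.29 to 0.55, adjusted p = 0.00610, edgeR). Between the lines it was 0.92 without ligand (0.79 to 1.05, adjusted p = 5.91e-08, edgeR) and 0.62 with ligand (0.49 to 0.75, adjusted p = 2.50e-06, edgeR). Without replicate 1 of shSrsf3 -PDGF-AA, the ligand effect in shSrsf3 cells had an adjusted p of 0.0565 (edgeR). In the 9 libraries with a mapping rate over 90%, the difference without ligand was 1.00, against replicate 3 of scramble -PDGF-AA alone, the lowest of its group (32.2 CPM).

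*Areg*, which encodes amphiregulin, had the largest log2 fold change of the 10 genes upon stimulation of shSrsf3 cells, on low counts. In CPM, its values in scramble cells were 0.494, 0.299 and 0.332 without and 0.548, 0.656 and 0.835 with ligand, and those in shSrsf3 cells were 0.285, 0.380 and 0.671 without and 1.36, 1.15 and 1.71 with ligand. The 3 shSrsf3 +PDGF-AA libraries were above the other 9, and the unstimulated groups of the 2 lines overlapped. In shSrsf3 cells the ligand gave a log2 fold change of 1.73 (95% interval 1.05 to 2.41, 3.32-fold, adjusted p = 0.0220, edgeR). In scramble cells the change was 0.88 (0.17 to 1.59, adjusted p = 0.175, edgeR), with the stimulated libraries above the unstimulated ones. With ligand, *Areg* was higher in shSrsf3 than in scramble samples by 1.04 (0.40 to 1.68, adjusted p = 0.0122, edgeR), and without ligand the difference was 0.19 (-0.56 to 0.94, adjusted p = 0.689, edgeR).

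The *Areg* calls depended on single libraries. The ligand effect in shSrsf3 cells passed the threshold no longer without replicate 1 or 2 of shSrsf3 -PDGF-AA or without any 1 of the 3 shSrsf3 +PDGF-AA replicates, with a log2 fold change between 1.46 and 2.08 over the 12 fits that each left out 1 library and an adjusted p of up to 0.181 (edgeR). The difference between the lines with ligand lost its call without replicate 1 of scramble +PDGF-AA or replicate 3 of shSrsf3 +PDGF-AA, with a log2 fold change between 0.88 and 1.22 and an adjusted p of up to 0.0574 (edgeR).

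*Hbegf*, which encodes HB-EGF and lies on the minus strand of chromosome 18 (36637980 to 36649677), was higher with ligand in scramble cells and higher in unstimulated shSrsf3 than in unstimulated scramble cells. It was at 96.0, 94.1 and 73.6 CPM in scramble -PDGF-AA, at 136, 151 and 146 CPM in scramble +PDGF-AA, at 109.7, 118 and 136 CPM in shSrsf3 -PDGF-AA and at 159.8, 153 and 163 CPM in shSrsf3 +PDGF-AA. The scramble -PDGF-AA libraries were below all others and the shSrsf3 +PDGF-AA libraries above all others. The log2 fold change upon stimulation was 0.72 in scramble cells (95% interval 0.52 to 0.91, adjusted p = 0.000657, edgeR) and 0.39 in shSrsf3 cells (0.19 to 0.59, adjusted p = 0.0950, edgeR). The latter passed the threshold in 4 of the 6 other fits, among them DESeq2 (adjusted p = 0.00142) and the 9-library fit (adjusted p = 0.00727, edgeR). Between the lines the log2 fold change was 0.46 without ligand (0.27 to 0.66, adjusted p = 0.00109, edgeR) and 0.14 with ligand (-0.06 to 0.33, adjusted p = 0.264, edgeR). In the 9 libraries the difference without ligand was 0.71, against replicate 3 of scramble -PDGF-AA alone, the lowest of its group (73.6 CPM). For the ligand in scramble cells, the 9 libraries leave 73.6 CPM without ligand against 136 and 146 CPM with it.

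*Nrg1*, which encodes neuregulin-1, was the only one of the 10 genes called lower in shSrsf3 samples. It was at 73.4, 76.1 and 74.9 CPM in scramble -PDGF-AA, at 52.0, 51.3 and 53.7 CPM in shSrsf3 -PDGF-AA, at 79.9, 82.5 and 83.3 CPM in scramble +PDGF-AA, and in shSrsf3 +PDGF-AA at 57.4, 53.3 and 54.6 CPM. All 6 shSrsf3 libraries were below all 6 scramble libraries. The log2 fold change between the lines was -0.52 without ligand (95% interval -0.60 to -0.43, adjusted p = 1.99e-07, edgeR) and -0.57 with ligand (-0.66 to -0.49, adjusted p = 9.07e-08, edgeR). The call was kept in each fit that left out 1 library, with -0.53 to -0.50 without ligand and -0.60 to -0.55 with ligand. Upon stimulation the change was 0.13 in scramble cells (0.05 to 0.21, adjusted p = 0.0837, edgeR) and 0.08 in shSrsf3 cells (-0.01 to 0.16, adjusted p = 0.589, edgeR), and DESeq2 called the former (0.14, adjusted p = 0.0156). *Nrg1* has 40 annotated transcripts from several starts, and the gene-level counts do not separate them.

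Neither *Tgfa* nor *Btc*, the other 2 ligands, was called in any comparison. *Tgfa* ranged from 0.621 to 0.935 CPM in scramble -PDGF-AA, from 0.448 to 0.797 in scramble +PDGF-AA, from 0.835 to 1.05 in shSrsf3 -PDGF-AA and from 0.681 to 1.03 in shSrsf3 +PDGF-AA, and its 95% intervals reached from -1.04 to 0.12 on the log2 scale for the ligand in scramble cells and from -0.01 to 1.18 for shSrsf3 against scramble with ligand. The latter, with an estimate of 0.59, was called without replicate 1 of scramble +PDGF-AA (adjusted p = 0.0212, edgeR). *Btc* was between 0.161 and 0.332 CPM in all 12 libraries, and a change of 0.91 in the difference between the lines without ligand was still within its interval (-0.45 to 0.91). In the 9 libraries this difference of *Btc* went from 0.23 to -0.23, and its log2 fold change upon stimulation of scramble cells from -0.05 to -0.56 (adjusted p = 0.732 and 0.647, edgeR). At 7 to 25 counts per library, differences of this size were not detectable.

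Of the receptors, *Egfr* and *Erbb2* differed between the lines by small fold changes, and no receptor was called upon stimulation. *Egfr* was at 85.4, 78.4 and 76.8 CPM in scramble -PDGF-AA, at 96.2, 93.7 and 95.2 CPM in shSrsf3 -PDGF-AA, at 87.5, 90.1 and 89.8 CPM in scramble +PDGF-AA, and in shSrsf3 +PDGF-AA at 96.8, 92.6 and 87.1 CPM. The unstimulated groups did not overlap and the stimulated ones did, with log2 fold changes between the lines of 0.25 (95% interval 0.14 to 0.35, adjusted p = 0.000863, edgeR) and 0.05 (-0.05 to 0.15, adjusted p = 0.454, edgeR). The log2 fold change of *Egfr* upon stimulation was 0.15 in scramble cells (0.05 to 0.25, adjusted p = 0.0959, edgeR), which DESeq2 called (0.16, adjusted p = 0.0204), and -0.04 in shSrsf3 cells (-0.15 to 0.06, adjusted p = 0.858, edgeR).

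*Erbb2* was at 63.2, 60.5 and 64.7 CPM in scramble -PDGF-AA, at 72.4, 68.2 and 72.9 CPM in shSrsf3 -PDGF-AA, at 62.8, 56.6 and 60.0 CPM in scramble +PDGF-AA, and in shSrsf3 +PDGF-AA at 70.4, 70.5 and 69.8 CPM. All 6 shSrsf3 libraries were above all 6 scramble libraries, by 0.18 without ligand (95% interval 0.08 to 0.28, adjusted p = 0.00561, edgeR) and 0.23 with ligand (0.13 to 0.33, adjusted p = 0.00106, edgeR) on the log2 scale. In the 9 libraries the difference without ligand was 0.13 and lost its call (adjusted p = 0.0697, edgeR). Upon stimulation the change of *Erbb2* was -0.07 in scramble cells (-0.17 to 0.03) and -0.02 in shSrsf3 cells (-0.12 to 0.08).

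*Erbb3*, whose product is a neuregulin receptor, was at 0.520, 0.0920 and 0.133 CPM in scramble -PDGF-AA, at 0.166, 0.301 and 0.139 CPM in scramble +PDGF-AA, at 0.285, 0.167 and 0.268 CPM in shSrsf3 -PDGF-AA and at 0.374, 0.341 and 0.451 CPM in shSrsf3 +PDGF-AA. Replicate 1 of scramble -PDGF-AA was above all other libraries. With ligand the groups of the 2 lines did not overlap, as held for 52.6% of all tested genes. The log2 fold change between the lines with ligand was 0.95 (95% interval -0.19 to 2.08, adjusted p = 0.174, edgeR), and 1.33 in the 9-library fit. Without ligand it was 0.03 (-1.11 to 1.16, adjusted p = 0.972, edgeR), and 0.83 in the 9 libraries (adjusted p = 0.292, edgeR). Upon stimulation of scramble cells it was -0.22 (-1.39 to 0.95) in all libraries and 0.20 in the 9. The other receptor for neuregulins, *Erbb4*, had between 0 and 3 counts in each library, and was not tested.

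*Errfi1*, the receptor inhibitor, was higher with ligand in scramble cells and higher in unstimulated shSrsf3 than in unstimulated scramble cells. It was at 54.5, 47.5 and 38.2 CPM in scramble -PDGF-AA, at 77.4, 82.6 and 82.8 CPM in scramble +PDGF-AA, at 57.8, 69.2 and 75.3 CPM in shSrsf3 -PDGF-AA and at 79.6, 75.1 and 75.4 CPM in shSrsf3 +PDGF-AA. The scramble -PDGF-AA libraries were below all others, and the 6 stimulated libraries lay between 75.1 and 82.8 CPM whichever shRNA they carried. The log2 fold change upon stimulation was 0.80 in scramble cells (95% interval 0.56 to 1.03, adjusted p = 0.00100, edgeR) and 0.19 in shSrsf3 cells (-0.04 to 0.42, adjusted p = 0.646, edgeR). Between the lines it was 0.53 without ligand (0.30 to 0.76, adjusted p = 0.00138, edgeR) and -0.08 with ligand (-0.31 to 0.15, adjusted p = 0.605, edgeR). In the 9 libraries the difference without ligand was 0.81 (adjusted p = 0.000108, edgeR), and the ligand effect in scramble cells was 1.07 and passed the 2-fold rule (adjusted p = 0.000504, edgeR), a fit in which scramble -PDGF-AA holds 1 library, whose spread is taken from the other groups.

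**Figure D3:**
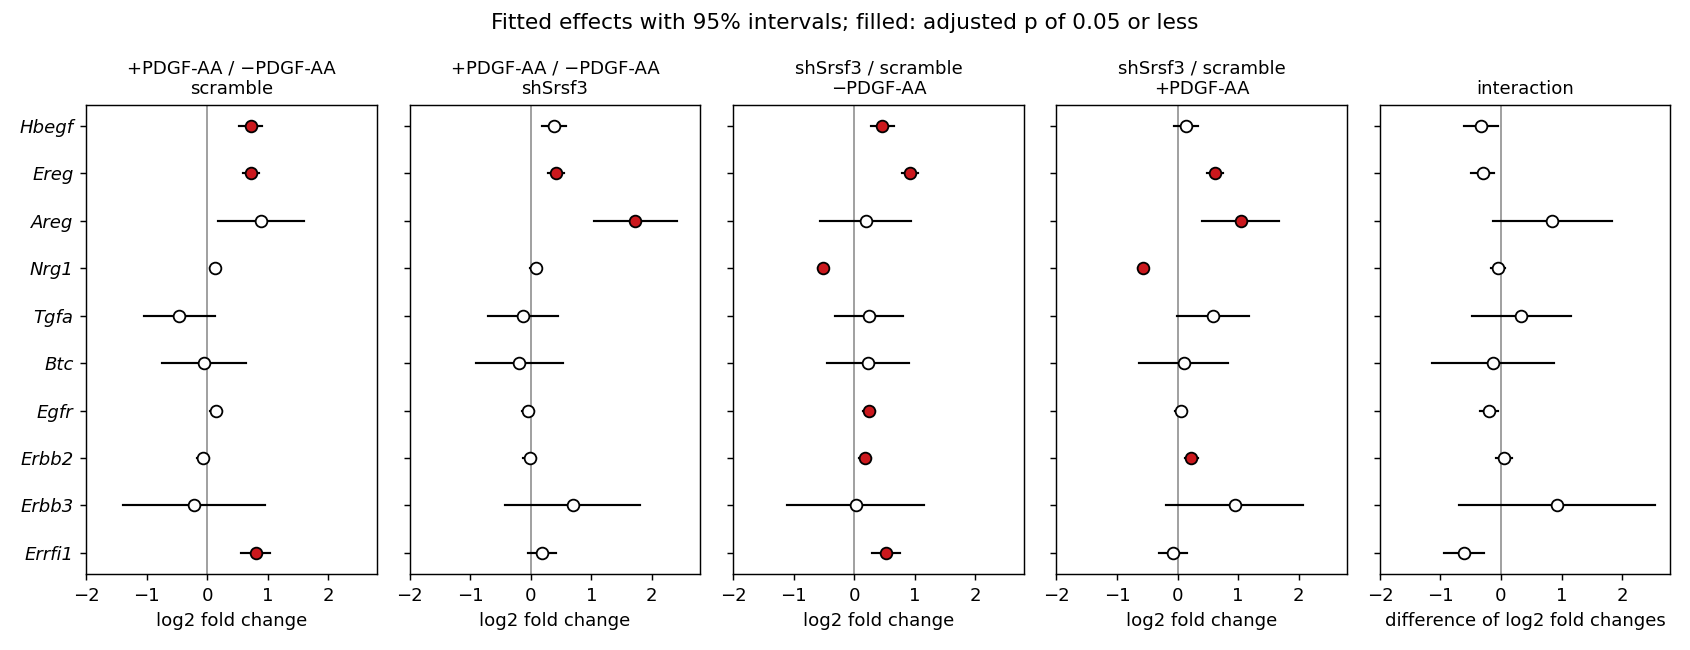
Fitted log2 fold changes with 95% intervals for the 10 genes in the 2 ligand comparisons, the 2 comparisons of shSrsf3 with scramble, and the interaction, with filled points where a gene was called. *Nrg1* is the only gene called below 0, at -0.52 and -0.57, and no interaction is called.

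Whether the ligand acted differently in the 2 lines was tested by the interaction, the log2 fold change upon stimulation in shSrsf3 cells minus that in scramble cells. None of the 10 genes was called by edgeR, where 0.0133% of all tested genes were, and DESeq2 called 1 (*Errfi1*). An unadjusted p under 0.05 in edgeR was found for 4 of the 10 (*Errfi1*, *Ereg*, *Egfr* and *Hbegf*), beside 833 of all 15037 tested genes. The difference was -0.61 for *Errfi1* (95% interval -0.94 to -0.28, adjusted p = 0.570, edgeR), -0.30 for *Ereg* (-0.49 to -0.12, adjusted p = 0.674, edgeR), -0.33 for *Hbegf* (-0.61 to -0.05, adjusted p = 0.874, edgeR) and -0.20 for *Egfr* (-0.34 to -0.05, adjusted p = 0.807, edgeR). For *Errfi1*, DESeq2 gave -0.61 with an adjusted p of 0.0385. The 9-library fit, with 1 library in scramble -PDGF-AA, gave -0.87. *Areg* had the opposite sign, 0.85 (-0.14 to 1.84, adjusted p = 0.874, edgeR). Without the low-count filter, edgeR called the interaction for *Errfi1* (-0.62, adjusted p = 2.74e-12), *Hbegf* (-0.34, adjusted p = 0.000890) and *Ereg* (-0.31, adjusted p = 0.00816). In that fit the adjusted p of *Ereg* between the lines without ligand also went from 5.91e-08 to 6.23e-54 (edgeR), at the same log2 fold change of 0.92. The shares of all genes called for the interaction in that fit and in DESeq2 were not computed. In the model of 15037 genes, the calls made in 1 line alone, for *Hbegf*, *Errfi1* and *Areg*, are not shown to differ between the lines.

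The levels of several of the genes varied together over the 12 samples. Over log2 CPM, Pearson's r was 0.958 between *Hbegf* and *Errfi1*, 0.876 between *Ereg* and *Hbegf*, 0.821 between *Areg* and *Hbegf* and -0.925 between *Nrg1* and *Erbb2* (n = 12 samples that share their 4 groups, given as a description). Among genes with a mean count of at least 50, those most alike to *Ereg* were *Nipal1* (r = 0.990), *Dusp4* (0.989), which encodes a phosphatase of MAP kinases, and *Abl2* (0.986). Among those most alike to *Errfi1* were *Hbegf* (0.958) and *Itprip* (0.940), and those most alike to *Areg* were *Zfp592* (0.914), *Tpr* (0.904) and *Lif* (0.893), and to *Erbb3* they were *Cdc45* (0.851), *Sh2b2* (0.834) and *Ep300* (0.833). These are among the highest values of 12261 or 12262 genes and are high by that choice.

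The other genes of the pathway were followed as lists. Of 6 other ligands and receptors, *Epgn*, *Nrg3*, *Nrg4* and *Erbb4* did not pass the filter, and *Egf* and *Nrg2* did. *Nrg2* was called higher in shSrsf3 samples with ligand (0.54, adjusted p = 0.0450, edgeR), a call that was lost with DESeq2, without the low-count filter and in 10 of the 12 fits that each left out 1 library. It was not called in the other comparisons. *Egf* had between 0.225 and 1.06 CPM and log2 fold changes of -0.85 and -0.76 in shSrsf3 samples without and with ligand (adjusted p = 0.0562 and 0.115, edgeR).

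Among the genes for ligand release, 12 of 14 were tested, and between shSrsf3 and scramble samples 1 was called higher and 4 lower both without and with ligand, where 22.2% and 20.3% of all tested genes were called higher and 23.7% and 20.7% lower. *Adam12*, which encodes a protease known to cleave HB-EGF, was at 17.8 ± 0.126 CPM in scramble -PDGF-AA (mean ± SD, n = 3), and ranged from 7.02 to 8.09 in shSrsf3 -PDGF-AA, from 16.1 to 18.1 in scramble +PDGF-AA and from 7.87 to 9.56 in shSrsf3 +PDGF-AA. Its log2 fold change between the lines was -1.23 without and -0.99 with ligand (adjusted p = 2.11e-08 and 2.53e-07, edgeR). *Timp3*, an inhibitor of such proteases, was at 2504 to 2966 CPM in scramble and 1542 to 1661 CPM in shSrsf3 samples without ligand, with log2 fold changes of -0.80 without and -0.85 with ligand (adjusted p = 3.37e-08 and 2.27e-08, edgeR). *Adam10* (-0.26 and -0.21) and *Adam17* (-0.17 and -0.15), which encode the main sheddases of these ligands, were also called lower, and *Adam19* (0.31 and 0.28) higher. Upon stimulation 1 of the 12 was called, *Frmd8*, a partner of the iRhom proteins, which was lower in scramble cells (-0.27, adjusted p = 0.0248, edgeR). None was called in shSrsf3 cells by edgeR or DESeq2. In those cells 3 had an unadjusted p under 0.05 in edgeR, beside 1420 of all 15037 tested genes. Of all tested genes, 2.00% were called higher and 2.04% lower upon stimulation of scramble cells, and 0.426% and 0.140% in shSrsf3 cells. The *Frmd8* call was lost when only the 2 groups compared were fitted and in 5 of the 12 fits that each left out 1 library.

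All 18 genes that relay the receptor signal to ERK were tested. Between shSrsf3 and scramble samples 7 were called higher and 7 lower without ligand, and 4 higher and 6 lower with ligand, with 9 calls without ligand in the 9 libraries. The shares of all tested genes called in these comparisons were 22.2% higher and 23.7% lower without ligand and 20.3% and 20.7% with ligand. They are those of the fit of all 12 samples, and the share in the 9 libraries was not computed. Upon stimulation, 2.00% of all tested genes were called higher and 2.04% lower in scramble cells, and 0.426% and 0.140% in shSrsf3 cells. The largest changes between the lines were those of the adaptor gene *Gab1* (-0.51 and -0.39 without and with ligand, adjusted p = 4.96e-07 and 7.90e-06, edgeR) and, without ligand, *Nras* and *Map2k1* (-0.27 and 0.27), and, with ligand, *Mapk3*, which encodes ERK1 (0.39, adjusted p = 7.12e-06, edgeR). Upon stimulation 1 was called in scramble cells, *Gab1* (-0.17, adjusted p = 0.0438, edgeR). That call was lost with DESeq2 size factors, without the low-count filter, with only the 2 groups compared and in the 9 libraries. It was also lost in 9 of the 12 fits that each left out 1 library. None was called in shSrsf3 cells by edgeR or DESeq2. In those cells 0 had an unadjusted p under 0.05 in edgeR, beside 1420 of all 15037 tested genes.

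Of 15 other negative regulators of the receptors, all were tested, and between shSrsf3 and scramble samples 2 were called higher and 5 lower without ligand and 1 higher and 4 lower with ligand, beside the same shares of all tested genes. *Lrig3* (-0.43 and -0.40, adjusted p = 7.60e-06 and 2.15e-05, edgeR) and *Lrig1* (-0.37 and -0.24, adjusted p = 2.73e-05 and 0.00132, edgeR), which encode transmembrane proteins of the LRIG family, were lower under both conditions, and *Ptprj*, a receptor phosphatase gene, was higher with ligand (0.71, adjusted p = 0.00502, edgeR). *Socs5* was called upon stimulation in scramble cells, with 121, 119 and 135 CPM without and 167, 149 and 159 CPM with ligand (0.34, adjusted p = 0.00419, edgeR), and this call was kept in all 12 fits that each left out 1 library. It was also higher in unstimulated shSrsf3 than in unstimulated scramble samples (0.26, adjusted p = 0.00217, edgeR). None of the 15 was called upon stimulation of shSrsf3 cells by edgeR, and DESeq2 called 1. In edgeR 1 had an unadjusted p under 0.05, beside 1420 of all 15037 tested genes. Of all tested genes, edgeR called 2.00% higher and 2.04% lower upon stimulation of scramble cells, and 0.426% and 0.140% in shSrsf3 cells. The medians of the 3 lists lay between -0.07 and 0.04 in the 4 comparisons, close to those of all tested genes.

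**Figure D4:**
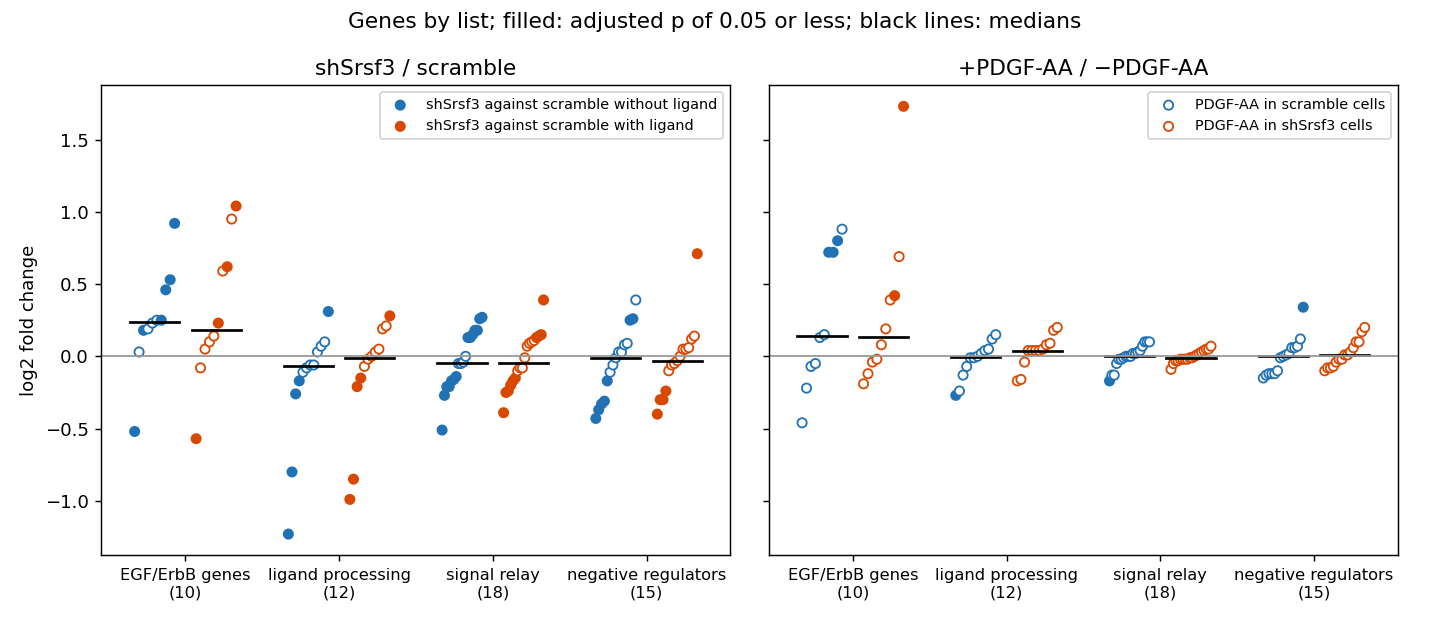
Log2 fold changes of the 10 EGF family and ErbB genes and of the tested genes for ligand processing (12), signal relay (18) and negative regulation (15), by comparison, with filled points for called genes and black lines at the medians. Upon stimulation, 3 genes of the other lists are called (*Frmd8*, *Gab1* and *Socs5*), all in scramble cells. Of all tested genes, 2.00% are called higher and 2.04% lower in that comparison.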

How the data were processed

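The authors sequenced RNA of 12 samples. Per the study's methods, the authors trimmed reads with BBDuk, quantified transcripts with Salmon (1.4.0) on GRCm39, and made gene-level summaries with tximport, whose version and scaling are not given in the sources used here. The rows of the deposited table are named by gene symbol, and its values are expected counts, estimates of how many read pairs came from each gene without scaling to depth, and 16.3% of the deposited values were not whole numbers. Total counts were between 30958966 and 76123359 per library, and no column was left unused (0).

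Expected counts were rounded, filtered with filterByExpr (minimum count 10) and scaled by TMM in edgeR 4.0.16 (R 4.3.3), and 15037 genes were fitted with edgeR's quasi-likelihood test in 1 model of all 12 samples, with Benjamini-Hochberg adjustment over all genes. The script was tested on simulated data. Standard errors were derived from the F statistic and 95% intervals from the t distribution. Replicates are biological per the study's methods. The replicate numbers were checked for pairing by correlating the deviations of samples from their group means. Same-numbered samples gave r between -0.380 and 0.439 (median 0.00715, over 0.1 in 4 of 18 pairs). No block was used in the main model. Differently numbered samples gave r between -0.607 and 0.558 (over 0.1 in 12 of 36 pairs). Among scramble libraries, replicate 3 without ligand had r of 0.558, -0.607 and 0.342 with replicates 1, 2 and 3 with ligand. Replicates 1 and 2 without ligand had r of 0.407 and 0.439 with replicate 2 with ligand. The scramble libraries thus split by Salmon mapping rate, which a block by replicate number does not model, and the cause was not tested. No exact permutation test was run, since 3 samples against 3 cannot go below 0.1.

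The genes and lists were chosen with earlier results of these data known. All 10 genes are named. From each other list, the 2 genes with the largest absolute log2 fold change in each shRNA comparison (called, groups not overlapping, mean count of at least 50) and up to 5 genes called upon stimulation are named. The 3 genes most alike were taken for the 4 genes with the largest log2 fold change, of which 1 is not reported here. *Nrg2*, *Egf*, *Adam10*, *Adam17* and *Adam19* were named after their values were seen. Positions, transcript lengths and promoter windows come from the GRCm39 genome with GENCODE M39, a later annotation than that used by the authors. At most 0.935% of the 31-base sequences of a gene (*Egfr*) also occur in another gene. Lengths of transcripts per sample were not used. DESeq2 1.42.0, matplotlib and numpy were also used. Counting error and the spread between 3 samples limit the precision.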

Additional observations from a re-analysis of the deposited data

How the results depend on the processing

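Each call count was recomputed with DESeq2 size factors, without the low-count filter, with DESeq2's test and with the replicate number as a block. It was also recomputed with only the 2 groups compared, in the 9 libraries with a mapping rate over 90%, and without each library in turn. Of 884 alternative values for the 10 genes, 840 kept their direction and their side of the threshold. That total includes effects not called in the main fit. It also includes fits that left out a library outside the groups compared, so it is no measure of how stable the calls are. With the replicate block, the counts of called genes were 6 and 4 between shSrsf3 and scramble samples without and with ligand, and 3 and 2 upon stimulation of scramble and shSrsf3 cells, and the block changed no call among the 10 genes, while *Nrg2* and *Gab1* lost theirs. In the 9 libraries, the 2-fold counts were 1 without ligand (*Ereg*), 2 with ligand (*Areg* and *Erbb3*) and 1 upon stimulation of scramble cells (*Errfi1*), and 1 interaction was called (*Errfi1*). DESeq2's test called 5 genes upon stimulation of scramble cells (adding *Nrg1* and *Egfr*) and 1 interaction (*Errfi1*), and without the filter 3 interactions were called (*Ereg*, *Hbegf* and *Errfi1*). The shares of all tested genes called were computed for the main fit alone, so the counts of these other fits have no background beside them. In the 9-library fit scramble -PDGF-AA holds 1 library. The cause of these changes was not tested.

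Without each library in turn, the count with ligand was 3 to 4 and its 2-fold count 0 to 1, the count upon stimulation was 3 to 4 in scramble cells and 0 to 3 in shSrsf3 cells, the latter with a 2-fold count of 0 to 1, and the count without ligand was 6 each time. The count of 0 in shSrsf3 cells was reached without replicate 1 of shSrsf3 -PDGF-AA, where both *Areg* and *Ereg* lost their call. Values that changed sign all had intervals that held 0. They were *Btc* (-0.23 without ligand and 0.38 for the interaction) and *Erbb3* (0.20 upon stimulation of scramble cells) in the 9 libraries, and *Erbb3* (-0.00 without ligand) in DESeq2. Leaving out libraries moved *Areg* (-0.16 to 0.45) and *Erbb3* (-0.34 to 1.04) without ligand, *Btc* (0 to 0.18) with ligand, *Btc* (-0.26 to 0.34) and *Erbb3* (-0.61 to 0.79) upon stimulation of scramble cells, *Tgfa* (-0.27 to 0.01) and *Erbb2* (-0.05 to 0) upon stimulation of shSrsf3 cells, and *Btc* (-0.53 to 0.07) and *Erbb3* (-0.10 to 1.31) in the interaction. Counts of calls in the other lists under these settings were examined after the data were seen. The depth of 4 to 72 counts per library limits what can be said of *Areg*, *Tgfa*, *Btc* and *Erbb3*.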
